A study of Mus musculus with 12 samples.

Results

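Genomic imprinting was examined in mouse thymus and T-cell lymphoma through 43 imprinted genes in 19 groups of neighboring or single genes, chosen by symbol, out of 50600 gene IDs counted in every library. RNA was sequenced from 12 mice, 3 in each of 4 groups. Ctrl mice carried DNMT1 fl/fl without Cre, KO mice DNMT1 fl/fl with CD4-CRE, ALK mice the NPM-ALK transgene with no Dnmt1 allele named in their genotype label, and ALKKO mice the transgene together with DNMT1 fl/fl and CD4-CRE. ALK libraries came from T-cell lymphoma cells and all others from thymocytes, so tumor, transgene and cell type cannot be told apart in ALK against Ctrl. The Ctrl mice were 25, 21 and 20 wk old, the KO mice 20, 20 and 21 wk, the ALK mice 24, 22 and 31 wk and the ALKKO mice 25, 21 and 19 wk. KO2 was female and the other 11 mice were male, on a mixed C57Bl/6xSV/129 background. The transgene, a human fusion of nucleophosmin and anaplastic lymphoma kinase, was driven by the Cd4 enhancer and promoter, and Cd4-Cre deletes Dnmt1 in T cells from the double-positive stage, so other cells of the tissue kept the gene.

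An imprinted gene is transcribed from the allele of 1 parent only, because DNA methylation laid down in the egg or the sperm marks 1 copy of a nearby control region. DNMT1 copies these marks to the new strand at each cell division, and the zinc-finger proteins ZFP57 and ZFP445 with TRIM28 keep the marked copies methylated in the early embryo. Many imprinted genes are fetal growth genes that are switched off in most tissues after birth and stay abundant in mesenchymal cells. These RNA counts do not separate the parental alleles, so they give the total level of each gene and not its allelic origin.

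The growth genes H19 and Igf2, which the results below turn on, each host a microRNA gene, and the mature sequences are shown with bases 2 to 8, the seed, in capitals. The mature forms of miR-675 (within chr7:142577078-142577133, minus strand, RefSeq, GRCm38.p6) lie in an exon of H19. Those of miR-483 (within chr7:142654932-142654989, minus strand) lie within Igf2 but outside its annotated exons. The 4 mature forms have 4 different seeds. Poly(A) libraries do not measure the mature forms.
miR-675-5p: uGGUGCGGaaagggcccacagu
miR-675-3p: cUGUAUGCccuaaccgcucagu
miR-483-5p: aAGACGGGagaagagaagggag
miR-483-3p: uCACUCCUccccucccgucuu

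Promoter windows of 300 bases, from 250 before to 50 after a transcript start, were present in the RefSeq table for 33 of the 43 genes, in 49 windows, and H19 was not among them. The hexamer TGCCGC, which ZFP57 binds when its CpG is methylated, or its complement GCGGCA was present in 13 of these 49 windows (26.5%) and in 11.6% of all 32851 windows. Among the 14 genes with windows that are listed with a promoter at a region methylated in the egg, 7 held it in any window. All starts of these genes were counted, whether or not a given window lies at the methylated region. Of all genes with windows, 13.1% held it. The upstream 250 bases alone held it in 16.3% of the windows of imprinted genes and in 8.68% of all. The hexamer contains a CpG, and windows of imprinted genes had a median of 15 CpG against 7 in all windows. Windows of the genes listed with a promoter methylated in the egg had a median of 9.5 CpG, and 36.4% of them held the hexamer. The part of CpG content in these shares was not tested. Overlapping windows were counted separately, such as those of Mest that start at chr6:30737800 and chr6:30737803. A match is a description of the sequence and not a bound site. Windows of 3 genes described below were picked for holding the hexamer. The other windows of Igf2, another start of Mest (chr6:30733256) and the window of Peg3 held none and are not shown. The sequences run 5′ to 3′ with the hexamer in capitals: a promoter of Mest (chr6:30737800-30738099, plus strand, 17 CpG and 2 hexamers), that of Nnat (chr2:157559828-157560127, plus strand, 17 CpG) and a promoter of Igf2 (chr7:142661222-142661521, minus strand, 14 CpG).
Mest: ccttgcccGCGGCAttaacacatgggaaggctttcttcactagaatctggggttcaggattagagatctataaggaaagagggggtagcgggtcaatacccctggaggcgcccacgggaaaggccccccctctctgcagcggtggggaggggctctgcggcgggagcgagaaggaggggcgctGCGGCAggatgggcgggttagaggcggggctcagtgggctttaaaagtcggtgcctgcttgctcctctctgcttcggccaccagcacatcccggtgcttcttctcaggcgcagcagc
Nnat: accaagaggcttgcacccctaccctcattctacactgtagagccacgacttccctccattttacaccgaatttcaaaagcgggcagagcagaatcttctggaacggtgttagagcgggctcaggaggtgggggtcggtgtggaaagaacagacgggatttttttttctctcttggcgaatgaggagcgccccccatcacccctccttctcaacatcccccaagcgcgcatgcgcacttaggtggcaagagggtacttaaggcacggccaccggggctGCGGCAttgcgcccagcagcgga
Igf2: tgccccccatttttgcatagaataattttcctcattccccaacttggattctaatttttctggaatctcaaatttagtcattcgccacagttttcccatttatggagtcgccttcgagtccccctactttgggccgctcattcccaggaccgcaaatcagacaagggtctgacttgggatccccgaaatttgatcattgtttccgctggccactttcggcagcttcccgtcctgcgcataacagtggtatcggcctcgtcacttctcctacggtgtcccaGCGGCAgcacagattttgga

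Gene counts summed to 12473857 to 18864327 per library (median 15262212). Values are given as CPM, a gene's count relative to its library's total after scaling by edgeR's TMM factors. A floor of 3 counts corresponded to 0.159 to 0.241 CPM before scaling, for counting error only. Dnmt1 had 444 ± 43.6 CPM in Ctrl, 230 ± 20.8 in KO, 223 ± 19.8 in ALKKO and 596 ± 206 in ALK (SD, n = 3), with every KO and ALKKO library below every Ctrl library. Over all genes this fall was not called (log2 fold change −0.97, SE 0.19, adjusted p = 0.179 for KO and ALKKO together against Ctrl, by the quasi-likelihood test of edgeR after Benjamini-Hochberg adjustment over all genes). Mouse Alk, where reads of the transgene can align, was at 34.8 to 54.9 CPM in the 6 transgenic libraries and at most 0.431 CPM in the others. The summed CPM of 12 thymocyte markers (11 with reads, Rag1 at 0) was 9233 to 12278 in the thymus libraries other than KO2, against 4171 in KO2 and 4189 to 5360 in ALK. KO2 also stood apart in 5 B-cell markers, at 1831 CPM against 40.4 to 81.5 in the other thymus libraries. KO3 stood apart in 5 muscle markers, at 1565 CPM against 14.9 to 50.6 in the other thymus libraries. The 8 thymic epithelial markers summed to 1952 to 2240 CPM in Ctrl, so libraries labelled thymocytes held RNA of other thymus cells.

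Of the 43 genes, 31 had enough reads to be tested (filterByExpr of edgeR). H19, Igf2 and 38 further genes had at least 1 read somewhere, whereas Mkrn3, Peg13 and Mcts2 were at 0 in all 12 libraries. A listed 0 need not mean that a transcript was missing, since Rag1, which thymocytes use to rearrange their receptor genes, was also at 0 while its neighbor Rag2 reached 7877 counts. Mcts2 lies within H13, where a read that falls on both genes can be counted for neither. Peg13 lies within Trappc9 but is annotated as sense intronic, so this applies to it only if introns were counted too. Another 5 genes never exceeded 3 counts, namely Snrpn, Magel2, Rtl1, Kcnk9 and Phlda2. Zim1 (0 to 19 counts), Nap1l5 (0 to 9), Ascl2 (1 to 8) and Usp29 (1 to 4) were also too low to be tested. In Ctrl, levels per kilobase of annotated exon spanned from 56.6 CPM per kb for Gnas, which encodes the stimulatory G-protein alpha subunit, to 0.0731 for Mirg among the tested genes. After Gnas came H13, a signal peptide peptidase, at 27.5 CPM per kb. Airn, Blcap, Nnat, Igf2r, Copg2 and Impact followed between 13.2 and 11.7 CPM per kb, an order that the spread of Nnat (22.2 ± 13.7 CPM, SD, n = 3) does not resolve. The fetal growth genes stood lower, with H19 at 4.79, Igf2 at 0.504, Peg3 at 0.382, Mest at 0.153 and Dlk1 at 0.11 CPM per kb.

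**Figure D1:**
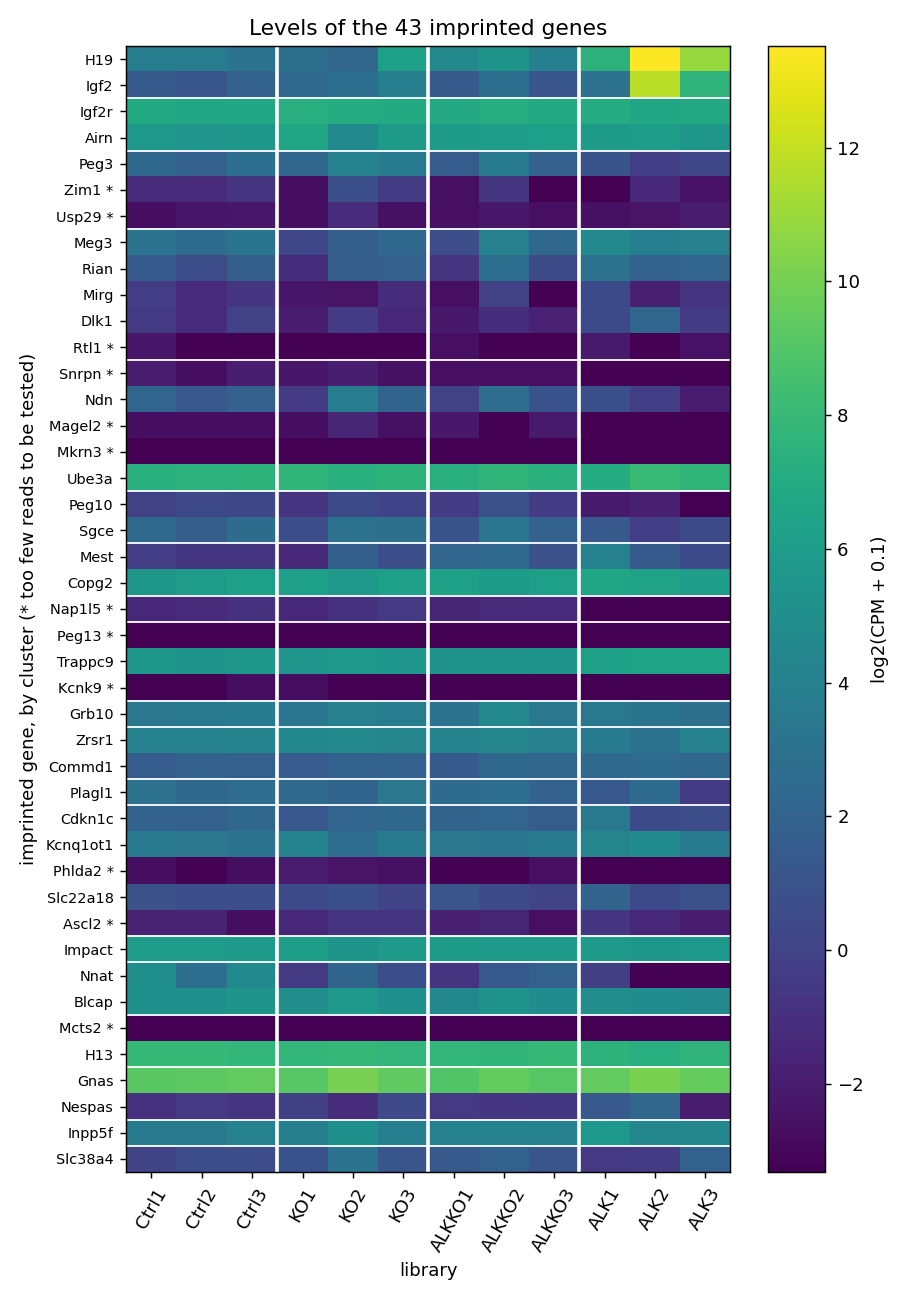
Level of each of the 43 imprinted genes (rows, by cluster, white lines between clusters) in each of the 12 libraries (columns, by group), as log2(CPM + 0.1) on the color scale. H19 and Igf2 are brightest in ALK2 and ALK3, and 12 genes marked with an asterisk had too few reads to be tested.

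Deletion of Dnmt1 asked whether imprinted genes change when the enzyme that copies their marks is removed from T cells. None of the 31 tested imprinted genes was called in KO against Ctrl, in ALKKO against Ctrl or in both together against Ctrl (adjusted p under 0.05 by edgeR, with no minimum fold). Few genes of any kind were: 3 of 16052 (0.0187%) in KO, 30 (0.187%) in ALKKO and 9 (0.0561%) in both together. DESeq2's Wald test also called 0 of the 31 in each comparison. At an unadjusted p under 0.05 by edgeR, 2 imprinted genes (Igf2r and Nnat) passed in KO, 2 (Mest and Nnat) in ALKKO and 1 (Nnat) in both together, where the shares over all genes were 5.52%, 3.18% and 4.34%. The median log2 fold change in both together was 0.14 for the 31 genes and 0.04 for all genes tested. For the 14 tested genes with a maternally methylated promoter region it was 0.26, with 10 of 14 above 0. For the other 17 it was 0.01, and 19 of all 31 genes were above 0.

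Transcription from both alleles in place of 1 would double a gene's level, a log2 fold change of 1. For KO and ALKKO together against Ctrl, the 95% interval lay wholly below 1 in 16 of the 31 genes and held 1 or more in the other 15. For those 15 a doubling could not be detected or told from no change in this fit. The fit took the spread from all 12 libraries, so differences among tumors also enter these intervals. Cdkn1c had an interval of −1.50 to 1.28, at 2.33 to 5.18 CPM in the thymus libraries and 1.31 to 11.3 CPM in ALK. Among the 14 tested genes with a maternally methylated promoter region, the interval lay below 1 in 4, including Nnat (−5.43 to −1.35). Whether each gene is imprinted in these cells was not tested, and where it is not, no doubling is expected. Igf2r, the receptor that clears IGF2 and is transcribed from the maternal allele, ranged from 106 to 118 CPM in Ctrl mice and from 116 to 151 CPM in the 6 deleted libraries, with a log2 fold change of 0.25 (95% interval −0.005 to 0.51). Igf2r is silenced in cis by the antisense RNA Airn, whose promoter carries the maternal methylation. Loss of that methylation need not raise Igf2r, so its interval cannot tell whether the mark was kept. The same holds for any gene silenced in this way. Impact, a translation regulator, ranged from 55.9 to 64.3 CPM in Ctrl mice and from 42.1 to 67.3 CPM in the deleted ones. Zrsr1, a retrogene of a splicing factor, was at 17.3 to 18.6 and 15.9 to 24.2 CPM. For genes such as Peg3, a zinc-finger gene, and Mest the interval reached from −0.58 to 1.92 and from −0.06 to 4.18.

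**Figure D2:**
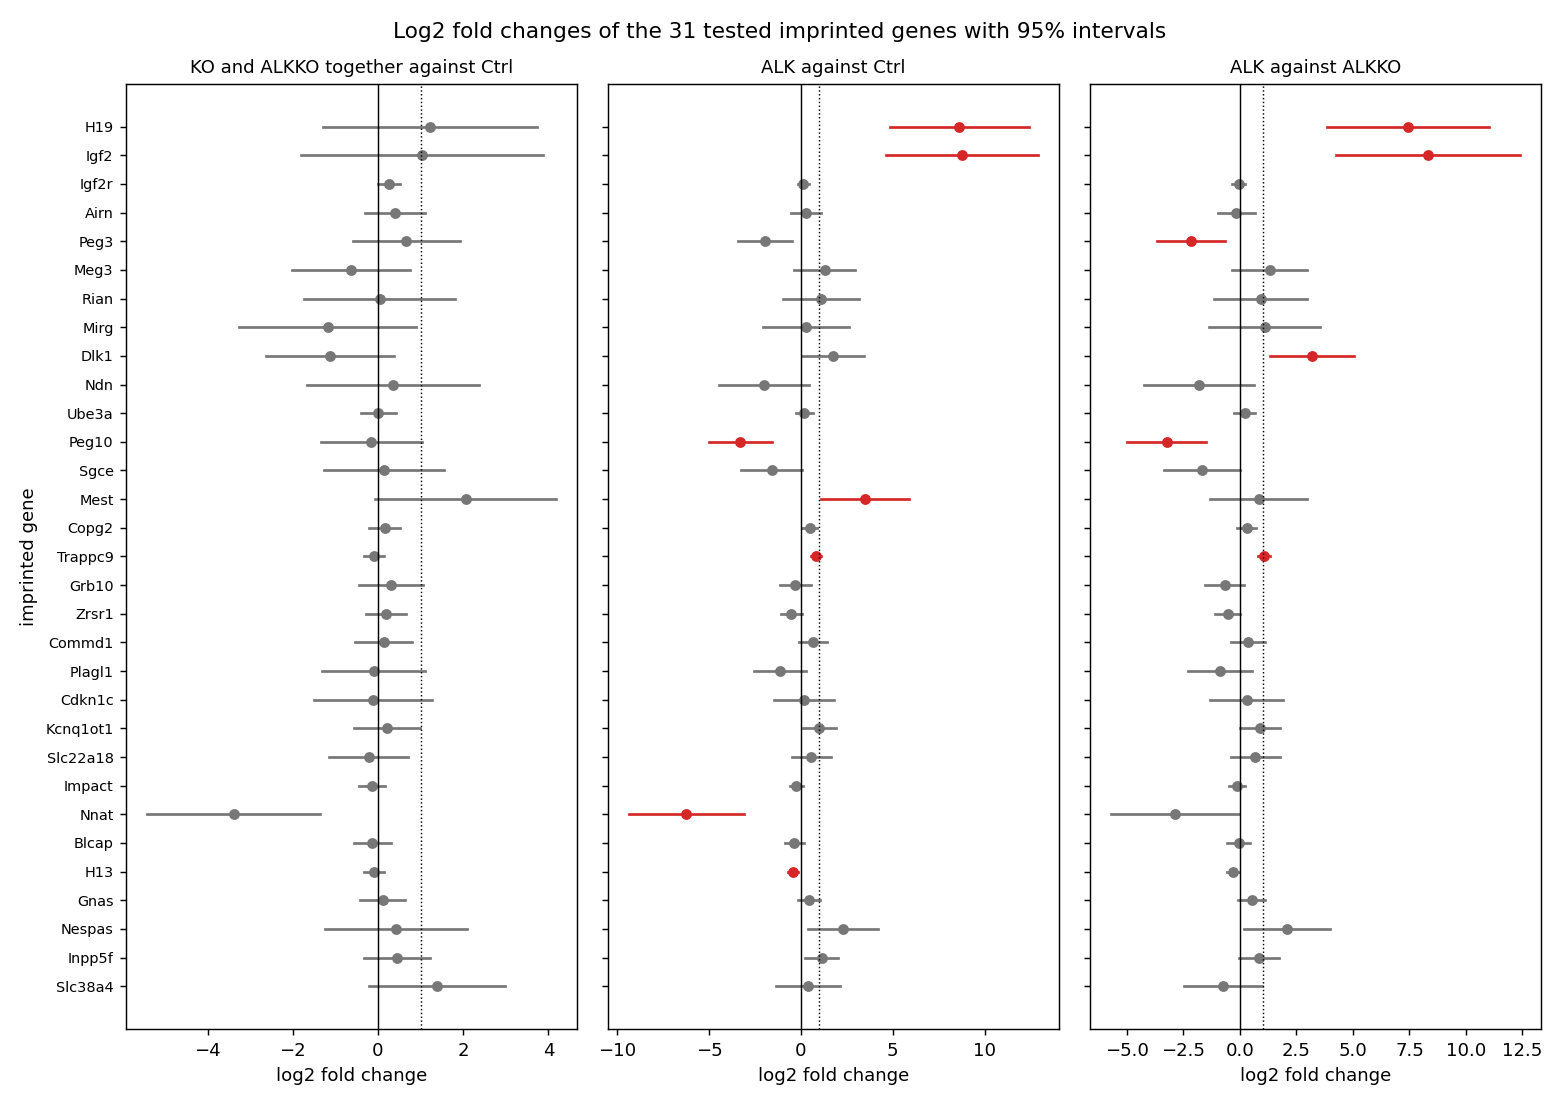
Log2 fold change (x axis) of the 31 tested imprinted genes (y axis) in 3 comparisons, with 95% intervals of edgeR's quasi-likelihood fit as lines, the solid vertical line at 0, the dotted one at a doubling, and called genes in red. No gene is red in the deletion comparison, where Nnat lies lowest (−3.39), and H19 and Igf2 lie farthest to the right in both comparisons of ALK.

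Nnat, Slc38a4 and no other tested imprinted gene had all 6 KO and ALKKO libraries on one side of the 3 Ctrl libraries. Among all genes tested this held for 832 of 16052 (5.18%), a share close to 2 of 31. Nnat (chr2:157560078-157562522, plus strand, within Blcap on the other strand) encodes neuronatin, a small membrane proteolipid of developing brain and of endocrine cells. It was at 33.4, 6.86 and 26.3 CPM in Ctrl, at 0.635, 4.12 and 1.55 CPM in KO and at 0.484, 2.39 and 3.57 CPM in ALKKO. All deleted libraries were lower than the lowest Ctrl library. The log2 fold change was −3.39 (95% interval −5.43 to −1.35, adjusted p = 0.699 by edgeR). The gene around it, Blcap, ranged from 35.1 to 43 CPM in Ctrl mice and from 23.7 to 51.0 CPM in the deleted ones. The thymic epithelial markers, another source of low-level transcripts in thymus, summed to 1285 to 2051 CPM in the deleted libraries other than KO2 and to 208 CPM in KO2, against 1952 to 2240 CPM in Ctrl. Their part in the Nnat values was not tested.

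Slc38a4, an amino-acid transporter gene, showed the opposite order. It was at 1.0, 1.45 and 1.45 CPM in Ctrl, at 1.80, 8.51 and 2.15 CPM in KO and at 2.48, 3.88 and 2.11 CPM in ALKKO, with all deleted libraries above all Ctrl libraries. Together the deleted mice had a log2 fold change of 1.39 (95% interval −0.20 to 2.97, adjusted p = 0.987 by edgeR). Without KO2 the log2 fold change was 0.86. ALK libraries had 0.604, 0.697 and 3.75 CPM and overlapped both.

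ALK tumors were compared with Ctrl thymocytes to describe imprinted genes in the lymphoma. Of the 31 tested, 7 were called: H19, Igf2, Mest and Trappc9 rose and Nnat, Peg10 and H13 fell. Over all genes 4734 of 16052 (29.5%) were called, so the share among imprinted genes (22.6%) was near that of genes at large. The median log2 fold change was 0.29 for the imprinted genes and 0.05 for all genes. All ALK libraries lay above all Ctrl libraries in 9 of the 31 genes and below them in 9, against 21.2% and 25.1% of all genes. Relative to ALKKO they lay above in 5 and below in 3, against 19.4% and 23.7% of all genes. In bulk RNA of this kind, fewer cells of a type and less RNA per cell cannot be told apart. Without ALK3 the count was 11, with Inpp5f, Zrsr1, Nespas and Kcnq1ot1 added, and DESeq2's Wald test called 10. Against ALKKO thymocytes, which share the transgene, 6 imprinted genes were called (28.1% of all genes were): H19, Igf2, Dlk1 and Trappc9 were higher and Peg3 and Peg10 lower in ALK. Both comparisons use the same 3 ALK libraries. When the fit held the ALK and ALKKO libraries alone, 2 (H19 and Trappc9) were called.

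H19 (chr7:142575529-142578143, minus strand), a long noncoding RNA transcribed from the maternal allele, reached the highest level of any of these genes. It was at 13.6, 13.4 and 8.35 CPM in Ctrl, at 7.25, 4.73 and 72.0 CPM in KO and at 23.9, 41.5 and 15.4 CPM in ALKKO. In ALK it was at 185, 11766 and 1900.0 CPM, so all tumors lay above all thymus libraries and differed among themselves by 63.7-fold. The log2 fold change against Ctrl was 8.61 (SE 1.70, adjusted p = 0.00498 by the same edgeR test) and against ALKKO 7.42 (SE 1.62, adjusted p = 0.00819). In ALK2 H19 was the gene with the most counts of all, 1.08% of the library. Without ALK2 its log2 fold change against Ctrl was 6.44, still called (adjusted p = 0.0106).

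Igf2 (chr7:142650766-142666816, minus strand), the fetal growth factor transcribed from the paternal allele, lies 72622 bases from H19 and shares its enhancers. It was at 2.64, 2.14 and 3.88 CPM in Ctrl, at 5.19, 6.96 and 14.8 CPM in KO, above all Ctrl libraries, and at 2.60, 6.93 and 2.17 CPM in ALKKO. The tumors had 7.65, 3562 and 201 CPM, in the same order as for H19, and ALK1 fell below KO3. Its log2 fold change was 8.76 against Ctrl (SE 1.87, adjusted p = 0.00705) and 8.33 against ALKKO (SE 1.83, adjusted p = 0.00856) by edgeR. Without ALK2 the value against Ctrl was 5.15 (adjusted p = 0.0127). Per kilobase, H19 exceeded Igf2 in all 12 libraries, by 1.58-fold in KO2 to 56.2-fold in ALK1, and by 7.68-fold in ALK2 where both were highest.

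Genes around the pair did not all rise with it. Of 15 other genes tested within 500 kb, 2 were called higher and 4 lower in ALK relative to Ctrl. Over all genes 29.5% were called, 2371 higher and 2363 lower of 16052. The noncoding gene Gm33148, between H19 and Igf2, rose from 0.0354 to 2.57 CPM in the mean (log2 fold change 5.89, adjusted p = 0.00152 by edgeR), but its Ctrl reads are under the floor. Mrpl23, a mitochondrial ribosomal protein gene on the far side of H19, rose from 6.14 to 13.2 CPM. Lsp1, Tnnt3, Tnni2 and Trpm5 fell. These neighbors were taken by position and named after their values were seen.

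Mest, Dlk1 and Meg3 are further fetal genes, and their levels differed among tumors. Mest (chr6:30723547-30748465, plus strand), a hydrolase-like gene expressed from the paternal allele in mesoderm, was at 0.739, 0.536 and 0.539 CPM in Ctrl and at 16.5, 2.61 and 1.25 CPM in ALK, with no overlap. It was at 0.265, 3.35 and 1.55 CPM in KO and at 4.47, 5.26 and 1.72 CPM in ALKKO, so ALKKO lay above all Ctrl libraries and overlapped ALK. In ALK against Ctrl the log2 fold change was 3.48 (SE 1.08, adjusted p = 0.0349 by edgeR). It was 1.67 without ALK1 (adjusted p = 0.17), and leaving out any 1 Ctrl library also ended the call (adjusted p = 0.0965 to 0.108). Dlk1 (chr12:109452823-109463336, plus strand), a membrane relative of Notch ligands from the paternal allele, was at 0.633, 0.321 and 0.916 CPM in Ctrl, 0.159, 0.687 and 0.269 CPM in KO, 0.121, 0.358 and 0.191 CPM in ALKKO and 1.27, 4.35 and 0.702 CPM in ALK. All tumors lay above all ALKKO libraries but not above all Ctrl libraries. The log2 fold change against ALKKO was 3.19 (SE 0.84, adjusted p = 0.0186 by edgeR), and the call was lost without ALK2 (2.10, adjusted p = 0.075), without ALKKO1 (2.89, adjusted p = 0.0737) or without ALKKO3 (3.08, adjusted p = 0.0716). The maternally expressed noncoding genes of the same cluster were not called in the fit over all 12 libraries. Meg3 was at 15.2 to 24.2 CPM in ALK against 5.73 to 8.67 in Ctrl and 1.11 to 15.9 in KO and ALKKO (log2 fold change against Ctrl 1.30, adjusted p = 0.21 by edgeR). With the ALK and Ctrl libraries alone Meg3 was called (1.29, adjusted p = 0.0329), as it was against ALKKO without ALKKO2 (2.53, adjusted p = 0.0393). Rian ranged from 0.371 to 7.58 CPM over all libraries and Mirg from 0 to 1.27 CPM.

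Trappc9 differed little within groups and was higher in tumors. This gene (chr15:72589620-73061204, minus strand) encodes a subunit of a vesicle-tethering complex, surrounds the imprinted Peg13 and is itself biased to the maternal allele in brain. It was at 48.0, 42.4 and 49.1 CPM in Ctrl, 44.3, 52.9 and 46.8 CPM in KO, 37.5, 39.8 and 41.1 CPM in ALKKO and 75.5, 87.3 and 87.2 CPM in ALK. The tumors lay above all thymus libraries and ALKKO lay below the others, with a log2 fold change of 0.84 against Ctrl (SE 0.12, adjusted p = 0.00123) and 1.08 against ALKKO (SE 0.12, adjusted p = 0.000477) by edgeR. H13 (chr2:152669461-152708670, plus strand), which surrounds Mcts2, was at 254, 253 and 227 CPM in Ctrl, 226, 243 and 219 CPM in KO, 225, 208 and 247 CPM in ALKKO and 193, 159.7 and 201 CPM in ALK. The tumors lay below all thymus libraries. Its fall against Ctrl was small (log2 fold change −0.41, SE 0.12, adjusted p = 0.0319 by edgeR) and was not called when any 1 Ctrl library (adjusted p = 0.0522 to 0.0892) or ALK2 (0.0787) was left out.

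Peg10, Peg3 and Nnat, all transcribed from the paternal allele and with maternally methylated promoters, were at low levels in tumors. Peg10 (chr6:4747306-4760517, plus strand), a placental gene derived from a retrotransposon, had 16, 23 and 21 counts in Ctrl, 9, 15 and 14 in KO, 11, 29 and 11 in ALKKO and 2, 2 and 0 in ALK. With all tumors under the floor of 3 counts per library, it was at least 4.60-fold lower than in Ctrl and at least 4.45-fold lower than in ALKKO (adjusted p = 0.0114 and 0.0126 by edgeR). Sgce, which shares its promoter region and encodes epsilon-sarcoglycan, was at 0.784 to 2.55 CPM in ALK, 3.0 to 6.14 in Ctrl and 1.54 to 9.74 in the deleted libraries, and was not called. Peg3 (chr7:6703892-6730431, minus strand) was at 4.75, 3.48 and 7.05 CPM in Ctrl, 4.71, 16.6 and 12 CPM in KO, 2.90, 11.4 and 3.44 CPM in ALKKO and 2.01, 0.784 and 1.09 CPM in ALK. The tumors were the lowest 3 of the 12 libraries. Against ALKKO the log2 fold change was −2.17 (SE 0.68, adjusted p = 0.0364 by edgeR), and the call was lost without ALKKO2 (−1.29, adjusted p = 0.161), ALK2 (−1.93, adjusted p = 0.108) or ALK3 (−2.07, adjusted p = 0.077). Against Ctrl it was −1.96 with an adjusted p of 0.0503, just past the threshold.

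Nnat was at 0.805, 0 and 0 CPM in ALK, below every Ctrl library. The thymic epithelial markers summed to 34.6 to 202 CPM in the same tumors against 1952 to 2240 CPM in Ctrl, with 6 of 8 called lower, and their part in the fall of Nnat was not tested. The log2 fold change against Ctrl was −6.24 (SE 1.41, adjusted p = 0.00926 by edgeR) and −11.47 without ALK1, where the other tumors are at 0 and the value depends on the prior count. Against ALKKO, whose levels were already low, it was −2.88 and not called (adjusted p = 0.116). Nap1l5, a retrogene too low to be tested, had 0 counts in each tumor against 5 to 8 in Ctrl, 5 to 9 in KO and 4 or 5 in ALKKO.

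**Figure D3:**
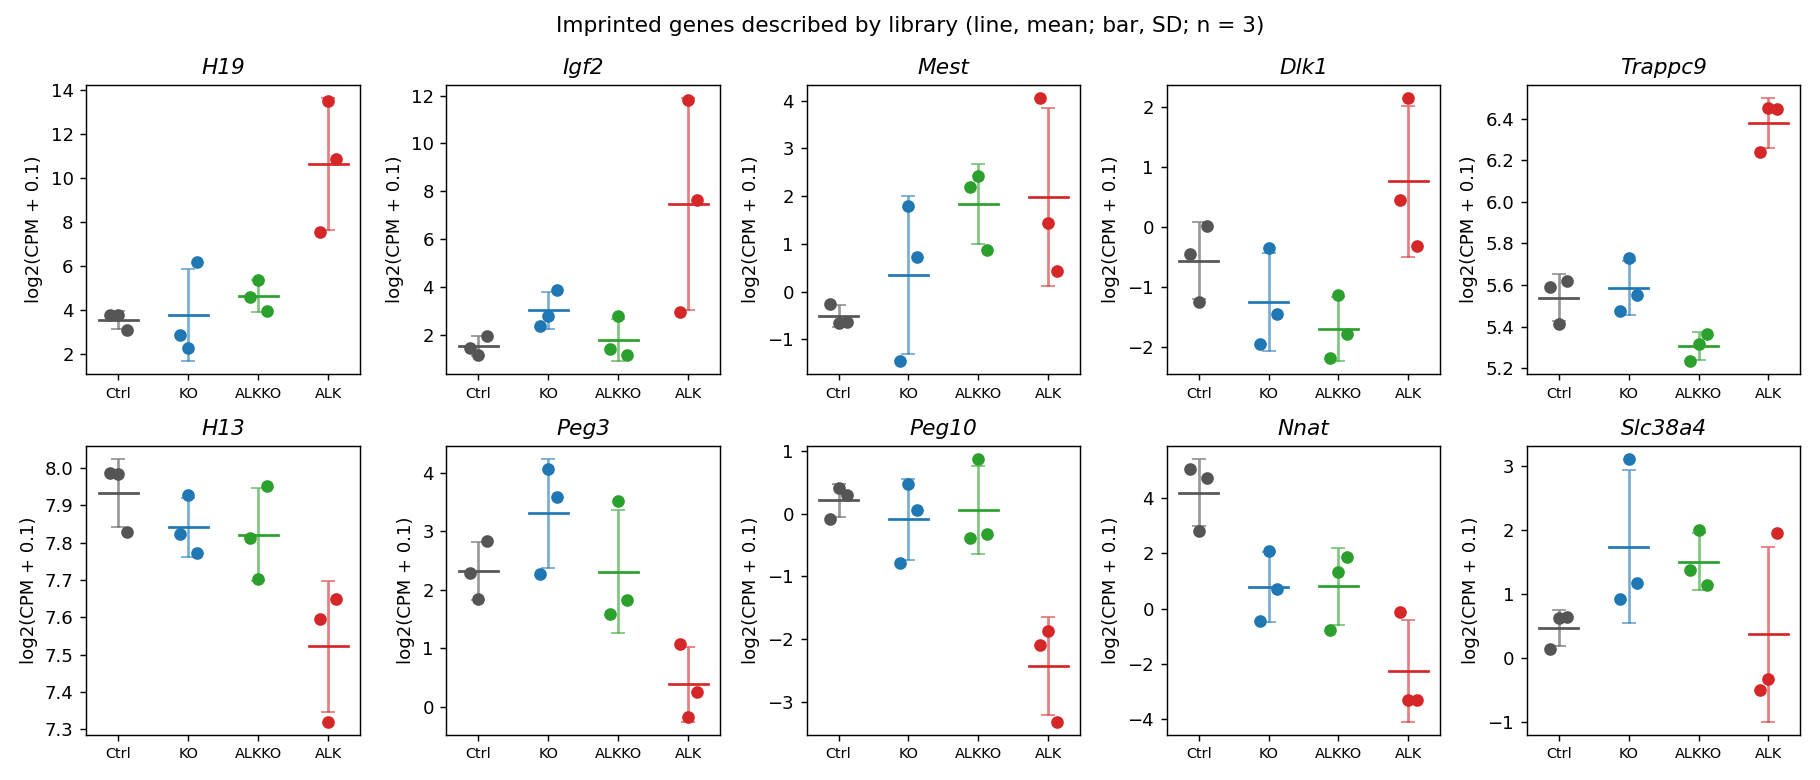
Level of 10 imprinted genes in each library as log2(CPM + 0.1), with points for single mice, horizontal lines for the mean and bars for the SD of these log values (n = 3 per group). All ALK points lie above all Ctrl points for H19, Igf2, Mest and Trappc9 and below them for H13, Peg3, Peg10 and Nnat, and the KO and ALKKO points lie below Ctrl for Nnat and above it for Slc38a4. Among all genes tested, 21.2% had all ALK libraries above all Ctrl libraries and 25.1% had them below.

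Whether the difference between transgenic and non-transgenic mice itself differed with the deletion was tested by the contrast of ALK against Ctrl minus ALKKO against KO, added after the data were seen. It called 4 imprinted genes, H19, Igf2, Trappc9 and Nnat, and 10.3% of all genes. Trappc9 had a difference of 1.12 on the log2 scale (SE 0.17, adjusted p = 0.00567 by edgeR) and remained called in each of 17 alternatives. H19 had 8.67 (SE 1.99, adjusted p = 0.0252), Igf2 9.96 (SE 2.26, adjusted p = 0.0242) and Nnat −6.29 (SE 1.75, adjusted p = 0.047). Without KO3, whose H19 and Igf2 were the highest of the thymus libraries and which had the high muscle markers, Trappc9 alone was called. The same single call was left without any 1 Ctrl or any 1 ALKKO library, and 3 genes were called without KO1.

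The remaining tested genes were not called in any of these comparisons with all libraries. Of the Cdkn1c cluster, the cell-cycle inhibitor Cdkn1c was at 1.31 to 11.3 CPM over the 12 libraries, highest in ALK1, the long antisense RNA Kcnq1ot1 at 6.36 to 27.7 CPM and the transporter Slc22a18 at 1.01 to 4.09 CPM. Cdkn1c rests on ALK1 (11.3 CPM, against 1.31 and 1.48 in the other tumors and 3.59 to 5.12 in Ctrl): its log2 fold change in ALK against Ctrl was 0.16 with all libraries (adjusted p = 0.887 by edgeR) and −1.58 without ALK1, a called fall (adjusted p = 0.0244). Against ALKKO it was likewise 0.30 and −1.43 (adjusted p = 0.0365). Airn, the antisense RNA that silences Igf2r in cis on the paternal allele, ranged from 26.3 to 100 CPM and Igf2r from 106 to 151 CPM. Ndn, a MAGE-family gene of the Prader-Willi region, was at 0.156 to 14 CPM and the ubiquitin ligase Ube3a at 139 to 265 CPM. Grb10, an adaptor that dampens insulin signaling, was at 7.18 to 23.8 CPM, the zinc-finger gene Plagl1 at 0.702 to 10.4 CPM (lower in ALK than in Ctrl without ALK2, with a log2 fold change of −2.09 and an adjusted p of 0.041 by edgeR), the copper-metabolism gene Commd1 at 2.66 to 5.84 CPM and the coatomer gene Copg2 at 49.3 to 99.0 CPM. Gnas was at 497 to 1141 CPM, its antisense partner Nespas at 0.156 to 4.62 CPM and the phosphatase Inpp5f at 12.2 to 49.4 CPM, highest in ALK1. Counts of Airn, Kcnq1ot1, Nespas, Nnat, Copg2 and Commd1 are uncertain because the strand setting of the counting is not given in the sources used here. Trappc9 and H13 surround Peg13 and Mcts2 on the same strand, and their counts are uncertain because the handling of overlaps is not given either.

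Levels of several of these genes were correlated with those of mesenchymal and adipocyte markers among the 9 thymus libraries. The summed level of 10 fibroblast and mesenchymal markers was 233 to 430 CPM in Ctrl, 186, 938 and 527 CPM in KO, 223, 960 and 294 CPM in ALKKO and 2595, 1613 and 1047 CPM in ALK. Of 32 imprinted genes with at least 10 counts in 1 thymus library, 9 were correlated with this sum and 7 with that of 5 adipocyte markers at an adjusted p under 0.05 over 64 relations (exact permutation test of Pearson's r on log2 values, two-sided, n = 9). Correlations at least as strong as the weakest of these (r of 0.79 in size) were found for 8.80% of 17456 genes with the mesenchymal sum and for 6.34% with the adipocyte sum, against 28.1% and 21.9% of the 32. For Sgce r was 0.92 (exact permutation p = 0.000788, adjusted 0.00721) and Spearman's rho 1.0 (exact permutation p = 5.51e-06, adjusted 0.000353). For Ndn r was 0.91 (exact permutation p = 0.000714, adjusted 0.00721) and rho 0.92 (p = 0.00131, adjusted 0.0105). For Peg3 r was 0.90 (exact permutation p = 0.0012, adjusted 0.00882) and rho 0.83 (p = 0.00827, adjusted 0.0311). Without KO2 and ALKKO2, the libraries farthest from the median sum, r was 0.96, 0.87 and 0.81. Impact went the other way, with r = −0.85 (exact permutation p = 0.00124, adjusted 0.00882) and rho −0.90 (p = 0.00203, adjusted 0.0108), and r = −0.81 without those libraries. With 3 libraries per genotype the relation could not be computed within a group. Correlations with the other marker lists were not computed. KO2 stood apart in several of those too, with endothelial markers at 592 CPM against 192 to 328 CPM in the other thymus libraries. In the tumors the sum was higher than in any thymus library, yet Sgce, Ndn and Peg3 were low there. With the adipocyte sum, r in thymus was 0.95 for Sgce, 0.91 for Ndn and 0.78 for Peg3. Peg3 was not among the 7 that passed there (adjusted p = 0.0506 by the exact permutation test). The adipocyte sum was 20.5 to 191 CPM in ALK against 644 to 1616 CPM in Ctrl, with 3 of 5 markers called lower. ALK1 had the highest mesenchymal sum and the lowest H19 of the tumors. Collagen genes carried the tumors' sum: Col1a1 was between 243 and 701 CPM in tumors and between 14.1 and 28.5 CPM in Ctrl, and Col1a1, Col1a2, Col3a1, Postn and Pdgfrb were the 5 of 10 markers called higher. The part of these cells in the levels of imprinted genes was not tested.

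**Figure D4:**
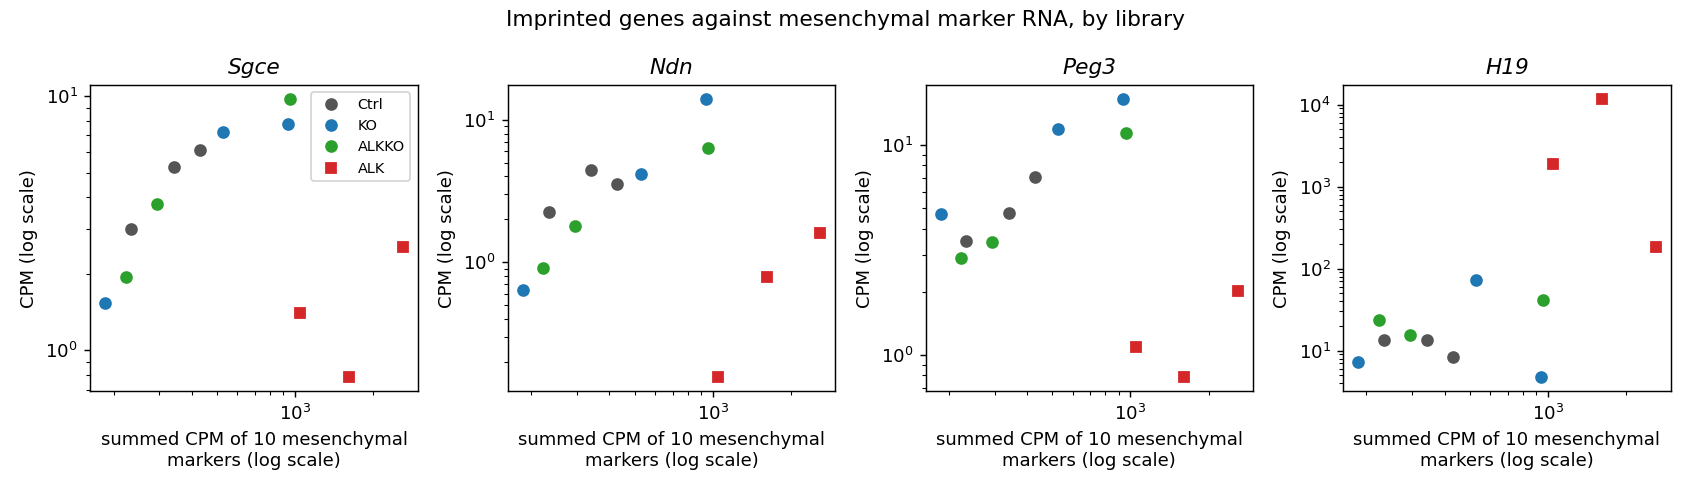
CPM of Sgce, Ndn, Peg3 and H19 (y axes, log scale) against the summed CPM of 10 mesenchymal markers (x axes, log scale) in the 12 libraries, with circles for thymus and red squares for ALK. Sgce, Ndn and Peg3 climb with the sum across the 9 thymus libraries and lie low in the tumors, while H19 is high in every tumor.

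Genes that keep imprints were followed in 1 list with genes that set or remove DNA methylation, the latter including Tet1. The list held 20 genes, 18 of them tested. None was called in KO, in ALKKO or in both together against Ctrl by edgeR, Dnmt1 included, although 3, 3 and 5 of them had an unadjusted p under 0.05 (5.52%, 3.18% and 4.34% of all genes did). DESeq2's Wald test called 1, Dnmt1, in each. ALK tumors had 6 above and 1 below Ctrl, with a median log2 fold change of 0.28, and 7 above and 1 below ALKKO, where 29.5% and 28.1% of all genes were called. The de novo methyltransferase Dnmt3b rose from 7.81 to 10.1 CPM in the Ctrl mice to 21.2 to 33.6 CPM in the tumors (log2 fold change 1.70, SE 0.26, adjusted p = 0.00155 by edgeR). Zfp57 was at 1.41, 25.3 and 23.7 CPM in ALK against 1.83 to 4.12 CPM in Ctrl, high in ALK2 and ALK3 and low in ALK1 (log2 fold change 2.64, SE 0.87, adjusted p = 0.0434). Trim28 ranged from 447 to 623 CPM in Ctrl mice and from 714 to 937 CPM in tumors (log2 fold change 0.55, SE 0.17, adjusted p = 0.0358), and Zfp445, Hells and Tet1 also rose. Dnmt3l, a cofactor of germline methylation, fell to 0, 0 and 0.078 CPM in ALK (adjusted p = 0.016).

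A further 37 imprinted genes, 26 of them tested, were read as a second list. By edgeR and by DESeq2, 0 were called in each of the 3 deletion comparisons, and 0 had an unadjusted p under 0.05. Against Ctrl the tumors had 1 gene raised and 5 lowered, and against ALKKO 7 lowered, of 26 each, where 29.5% and 28.1% of all genes were called. The survival gene Bcl2l1 fell from 258 to 283 CPM in Ctrl mice to 27.5 to 53.7 CPM in the tumors (log2 fold change −2.79, SE 0.30, adjusted p = 0.000411 by edgeR). Smoc1, Atp10a, Ppp1r9a and Snhg14, the host transcript of small RNAs of the Prader-Willi region, were lower in both comparisons. Ddc, which encodes an enzyme of dopamine synthesis, was at 0.268, 6.01 and 75.9 CPM in ALK and 1.21 to 1.72 CPM in Ctrl (log2 fold change 4.17, SE 1.39, adjusted p = 0.045), a rise carried by ALK3. Dcn, lower in ALK than in ALKKO, is also 1 of the 10 mesenchymal markers.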

How the data were processed

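RNA of 12 mice, 3 in each of Ctrl, KO, ALK and ALKKO, grouped by the labels, was analysed. The authors trimmed single-end reads of stranded poly(A) libraries, aligned them to mm10 with STAR and deposited raw counts of reads per gene made with HTSeq. The counting version, annotation release and strand setting are not given in the sources used here, and reads aligned to several places (39.2% to 51.8% of the reads in the tables), on several genes (1.38% to 2.83%) or on none (1.70% to 2.81%) stayed out of library totals. Positions and symbols came from GENCODE M21 (GRCm38; 50376 of 50600 IDs matched).

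Counts were normalized by TMM, filtered by filterByExpr (16052 genes) and tested with edgeR 4.0.16 in R 4.3.3 (glmQLFit, robust, 1 term per group over all 12 libraries) with Benjamini-Hochberg adjustment. Calls needed an adjusted p under 0.05 and no fold minimum, since a gained allele at most doubles a level. Intervals are 95% from the fit's degrees of freedom. Correlations across libraries were tested by exact permutation. p-values measure the spread between these mice. No 2 libraries of a group were alike within sampling noise. DESeq2 1.42.0, its size factors, other filters, a fold minimum, a replicate block, fewer libraries and leaving out each library were alternatives. The fits were tested on simulated data.

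Members called in a comparison and those whose deleted libraries did not overlap Ctrl are given by library, others by range. The members, lists and comparisons were chosen with earlier results of these data known. Methylation data were not analysed here.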

Additional observations from a re-analysis of the deposited data

Results flagged for a closer look

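The difference between ALK and Ctrl differed from that between ALKKO and KO in 4 imprinted genes by the interaction term of edgeR's quasi-likelihood test, a contrast added after the data were seen. The values, on the log2 scale, were 8.67 for H19 (adjusted p = 0.0252), 9.96 for Igf2 (adjusted p = 0.0242), 1.12 for Trappc9 (adjusted p = 0.00567) and −6.29 for Nnat (adjusted p = 0.047). Tumor tissue and an intact Dnmt1 gene coincide in the ALK mice and cannot be told apart in this contrast. Among the 4 genes, only Trappc9 kept an adjusted p under 0.05 in all of its 17 alternatives.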

How the results depend on the processing

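No imprinted gene was called in the 3 deletion comparisons under any alternative run. The calls of H19, Igf2, Trappc9, Nnat and Peg10 in ALK against Ctrl held in each alternative test in which they were tested (a 2-fold minimum leaves out Trappc9 and H13), and those of Mest and H13 were lost in 6 of 12 each. Those of Dlk1, Peg3, Igf2 and Peg10 in ALK against ALKKO were lost in 4, 5, 1 and 1. The count of 7 in ALK against Ctrl was 5 to 11 when 1 library was left out, the count of 6 in ALK against ALKKO was 4 to 8, and the count of 4 in the added interaction was 1 to 5. All deletion counts stayed at 0 when 1 library was left out. ALK against ALKKO with its own libraries alone gave 2, with fewer samples to estimate the spread. The interaction calls of H19 and Igf2 were each lost in 9 of 17 alternatives and that of Nnat in 12 of 16. The interaction gave 1 without the low-count filter and 1 with the replicate block. The replicate numbers do not pair the mice: 5 of 18 same-numbered pairs had a correlation of deviations over 0.1 (range −0.106 to 0.426), and 5 of 12 libraries correlated best with their own number. The block gave 5 calls in ALK against Ctrl, 5 in ALK against ALKKO and 0 in each deletion comparison. No called value changed sign, and the sole gene uncalled with all libraries that changed sign and was then called was Cdkn1c, −1.58 against Ctrl and −1.43 against ALKKO without ALK1. Without the low-count filter Nap1l5 was also called in both comparisons of ALK. Low counts of Peg10, Nnat, Dlk1 and Nap1l5 in single libraries limit their folds.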
